A study of Danio rerio with 12 samples.

Results

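Steroid-converting enzymes change one steroid hormone into another. Of their zebrafish genes, 10 were chosen by symbol, with earlier results of these data known: hsd17b3, hsd17b1, hsd17b12a, hsd11b2, hsd20b2, srd5a1, srd5a2a, cyp17a1, cyp19a1b and hsd3b7. Of these, 9 are among the 14581 genes of the deposited liver expression table. hsd20b2, whose zebrafish enzyme reduces cortisone on the way to its excretion, has no row there under its symbol or the synonyms of the RefSeq gene table, and was not analysed here. The livers were those of adult wild-type fish (Danio rerio), treated daily with β-estradiol or with DMSO, a solvent, over 6 weeks from 3 months after fertilization. Each fish had a tank of its own, so that its food intake could be controlled. The 12 libraries form 4 groups of 3: male estradiol, male DMSO, female estradiol and female DMSO. "Untreated" below means treated with DMSO and not with estradiol. The dose and the number of fish behind each library are not given in the sources used here, so p-values measure only the spread between these libraries. The libraries are numbered 19 to 24 in the estradiol groups and 7 to 12 in the DMSO groups, so estradiol and any difference between runs of libraries cannot be told apart.

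Sex steroids are made mainly in the gonads, and glucocorticoids in the interrenal tissue of fish, the counterpart of the mammalian adrenal cortex. Liver receives both from the blood and reduces, oxidises and conjugates them before they leave the body, so its enzymes help to set how much active hormone a tissue sees. Hydroxysteroid dehydrogenases switch a steroid between a more and a less active form, steroid reductases of the SRD5A family turn testosterone into dihydrotestosterone, and the cytochrome P450 enzymes of the group build androgens or, as aromatase, turn them into estrogens.

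Expression is given as FPKM, fragments per transcript length and library size, which is a level per length and can be compared between genes. A gene was tested if 3 or more of the 12 libraries had 1 FPKM or more of it, which held for 9190 genes and for 7 of the 9 enzymes. hsd17b1 and cyp19a1b were too low to test. hsd17b3 met this filter through the male DMSO libraries alone and cyp17a1 through estradiol libraries alone, so a difference between groups was built into their being tested. Log2 changes are on the log2(FPKM + 1) scale, which understates the change of low genes, and adjusted p-values are from limma with Benjamini-Hochberg adjustment over all 9190 genes. "Fell" and "rose" are used for an adjusted p under 0.05.

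The livers were checked against markers of hepatocytes and of other organs. The 12 hepatocyte markers in the table, such as fabp10a and the fibrinogen genes, were at 1 FPKM or more in every library, with summed levels of 11426 to 66956 FPKM in male estradiol, 107070 to 128800 FPKM in male DMSO, 24858 to 28905 FPKM in female estradiol and 57919 to 77214 FPKM in female DMSO. Summed levels of 14 oocyte markers were 62.8 to 4126 FPKM in male estradiol, 0.122 to 1.92 FPKM in male DMSO, 0.377 to 5403 FPKM in female estradiol and 12 to 263 FPKM in female DMSO. Replicates 1 and 3 of both estradiol groups were the 4 libraries rich in these transcripts. The 13 intestine markers summed to at most 492, 2031 and 468 FPKM in male estradiol, male DMSO and female estradiol, while female DMSO ran from 836 to 5729 FPKM, with replicates 1 and 2 high in vil1 and cdx1b. The 12 exocrine pancreas markers summed to 108 to 573 FPKM in male estradiol against 5253 to 7261 FPKM in male DMSO, and to 111 to 604 FPKM in female estradiol against 2394 to 11038 FPKM in female DMSO. In whole liver, a lower share of a cell type and less RNA per cell of that type cannot be told apart.

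hsd17b3, whose enzyme makes testosterone from androstenedione in mammals, was a transcript of untreated male liver. It was at 0.323, 0.223 and 0.0519 FPKM in male estradiol replicates 1 to 3, against 117, 51.8 and 36.6 FPKM in male DMSO. Female livers had 0.190, 0.0171 and 0.0154 FPKM in the estradiol group and 0.240, 0.0497 and 0.187 FPKM in the DMSO group. The 3 male DMSO libraries stood above the other 9 with a wide gap, and those 9 overlapped one another. Within its own library hsd17b3 ranked at percentiles 92.9 to 96.1 of all genes in male DMSO and at 35.6 or lower in the other groups.

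hsd17b3 fell in estradiol-treated males by 5.69 on the log2 scale (SE 0.39, limma adjusted p = 7.95e-06), to 0.199 ± 0.137 FPKM against 68.4 ± 42.6 FPKM in male DMSO (mean ± SD, n = 3 each). Of all genes tested, 3.79% passed the threshold in this comparison and 2.91% were lower. Untreated females were as far from untreated males: the log2 change of female DMSO against male DMSO was -5.74 (SE 0.39, limma adjusted p = 1.09e-05), in a comparison where 0.555% of genes passed and 0.316% were lower. The comparisons share the male DMSO libraries and so are not independent. Between estradiol and DMSO females the log2 change of hsd17b3 was -0.11 (95% interval -0.96 to 0.74, limma adjusted p = 0.898), at levels under 0.25 FPKM in all 6 libraries. The interaction, the estradiol effect in females minus that in males, was 5.58 (SE 0.55, limma adjusted p = 7.02e-04), where 0.261% of genes passed and 0.163% were above 0. hsd17b3 was tested through its male DMSO level, and female DMSO left no room for a fall of that size, so the interaction restates the male DMSO level and is a description. The male, sex and interaction calls of hsd17b3 held in every alternative run, each single library left out included, with adjusted p-values of at most 0.00350, 0.00687 and 0.0441. The male and sex calls also rest on the male DMSO libraries through which the gene was tested. Holding in these runs is thus a description of that level and no separate support. Male DMSO replicate 1 was the highest of its group for hsd17b3 and for 49.0% of all genes tested.

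**Figure D1:**
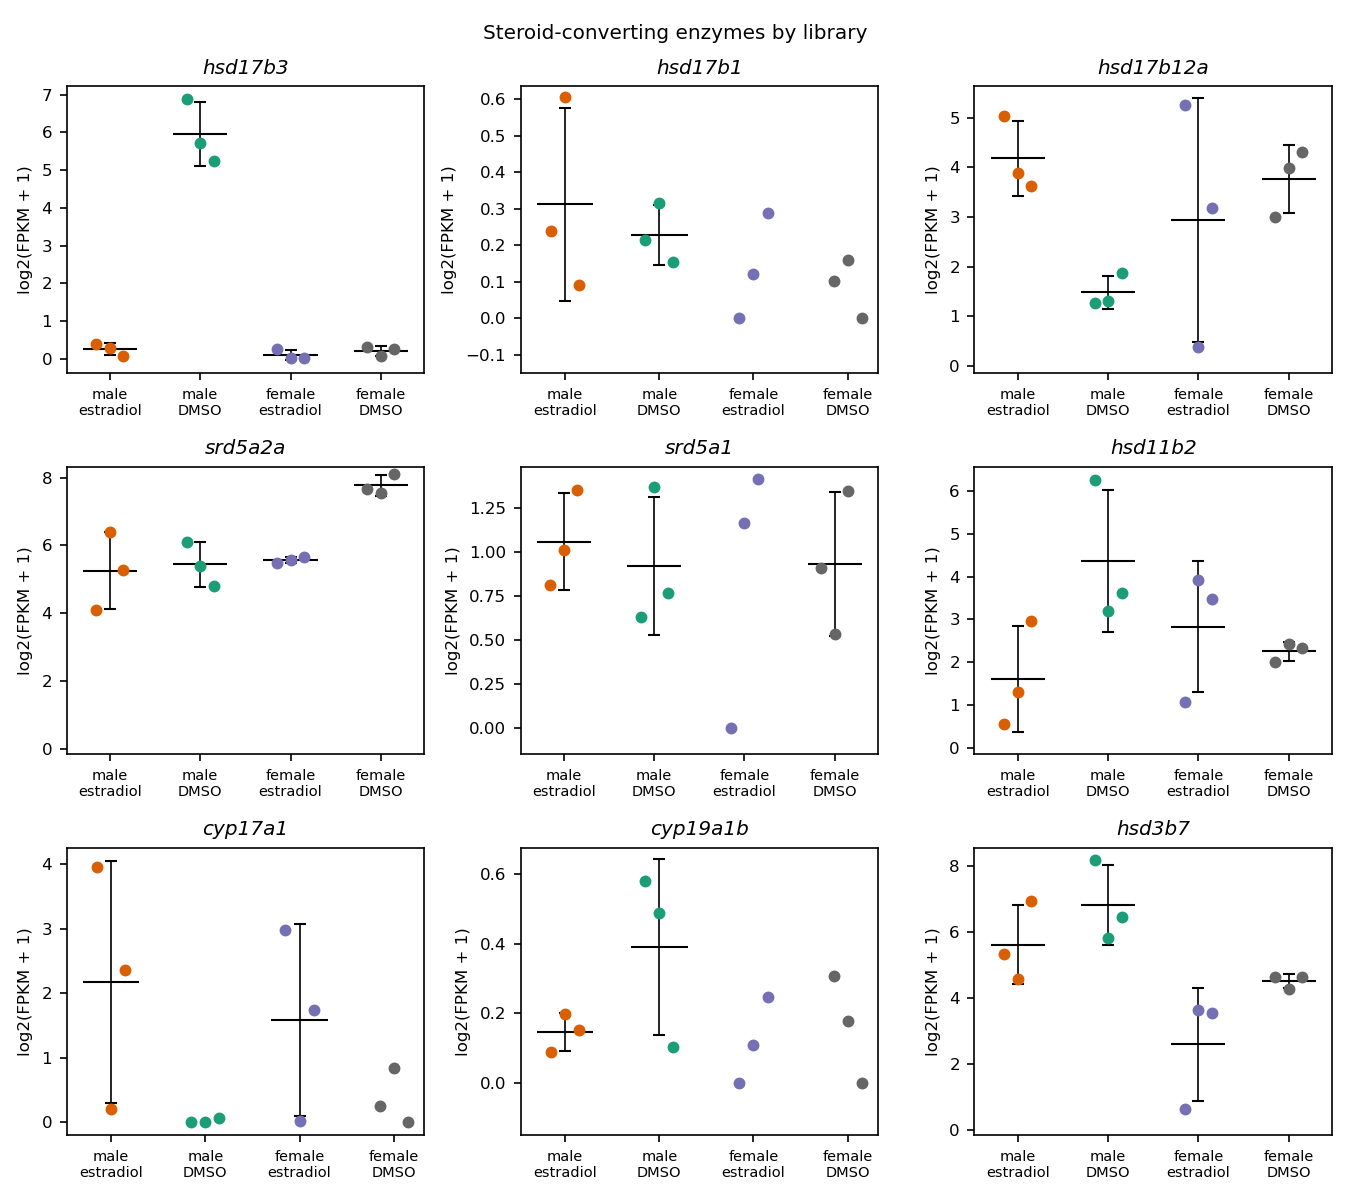
Level of each of the 9 enzymes in the 12 livers, as log2(FPKM + 1), with 1 point per library, by group from left to right male estradiol, male DMSO, female estradiol and female DMSO. Horizontal lines with bars are the mean and SD of 3 libraries and are left out for a group that holds a library listed at 0. hsd17b3 is high in male DMSO alone, and srd5a2a is highest in female DMSO.

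Over the 12 libraries the genes with the pattern most like that of hsd17b3 were vtg2, rgra and vtg5 (Pearson r on the log2 scale of 0.998, 0.996 and 0.994, with no test, since the libraries share 4 groups). vtg2 and vtg5 encode vitellogenins, the egg yolk precursors that fish liver makes under estrogen. vtg2 was at 78.4, 29.7 and 18.7 FPKM in male DMSO and listed at exactly 0 in the other 9 libraries, and vtg5 and rgra were listed at 0 in the same 9. These genes met the filter through the same male DMSO libraries as hsd17b3, so an r near 1 follows from that split. For vtg2 and vtg5, a level in untreated males alone is the reverse of production under estrogen. An exact 0 in this table may be a failed estimate, and the r values rest on these 0s. hsd17b3 was above 0 in all 12 libraries.

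hsd17b1 encodes the dehydrogenase that makes estradiol from estrone. It stayed low, between 0 and 0.522 FPKM over the 12 livers. Its values were 0.180, 0.522 and 0.0649 FPKM in male estradiol, 0.159, 0.245 and 0.113 FPKM in male DMSO, 0, 0.0876 and 0.220 FPKM in female estradiol, and 0.0725, 0.118 and 0 FPKM in female DMSO. All neighbouring groups overlapped, and the gene was not tested.

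hsd17b12a encodes a reductase of very long chain fatty acid elongation, which in mammals has also been linked to estrone reduction. It was at 31.8, 13.7 and 11.4 FPKM in male estradiol against 1.39, 1.48 and 2.64 FPKM in male DMSO. Female livers had 37.4, 0.288 and 8.02 FPKM in the estradiol group and 7.02, 14.9 and 18.95 FPKM in the DMSO group. Male DMSO was thus below both male estradiol and female DMSO without overlap, while female estradiol spanned the range of all other groups because of its replicates 1 and 2. No overlap between the male groups was seen in 30.0% of all genes tested, and between untreated females and males in 30.8%.

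The log2 change of hsd17b12a was 2.70 in males (SE 0.93, limma adjusted p = 0.113) and -0.84 in females (SE 0.93, limma adjusted p = 0.641), and neither passed. Females against males under DMSO gave 2.29 (SE 0.93, limma adjusted p = 0.368). At the same log2 change it passed when only the DMSO groups were fitted (0.0183), where 811 of all 9190 genes passed, beside 51 in the main fit. The oocyte-rich libraries are not part of this comparison, and the log2 change stayed at 2.29 without them. The gene passed in males without female estradiol replicate 1 (adjusted p = 0.0378) or 2 (0.0273) and when only the male groups were fitted (0.0304). No male library was left out in those fits, and the log2 change stayed at 2.70. Oocyte transcripts were high in male estradiol replicates 1 and 3 and in female estradiol replicates 1 and 3, where hsd17b12a had 31.8, 11.4, 37.4 and 8.02 FPKM. In male estradiol replicate 2, at 62.8 FPKM of summed oocyte markers, it had 13.7 FPKM. Without those 4 libraries, which leaves 1 library in each estradiol group that is assumed to vary like the others, the log2 change was 2.40 in males (limma adjusted p = 0.0414) and -3.40 in females (0.0189). Its paralog hsd17b12b, for the same elongation step, was at 29.8 to 77.9 FPKM in male estradiol, 38.0 to 72.0 FPKM in male DMSO, 34.3 to 55.5 FPKM in female estradiol and 50.7 to 84.5 FPKM in female DMSO, with overlap in each pair of groups. How reads shared by such paralogs were assigned is not given in the sources used here. The genes most like hsd17b12a over the 12 libraries were trmt6, zcchc10 and tmem33 (Pearson r of 0.946, 0.945 and 0.935).

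srd5a2a encodes a steroid reductase that forms dihydrotestosterone from testosterone, and it was most abundant in untreated female liver. It was at 43.5, 46.6 and 49.6 FPKM in female estradiol against 203, 184 and 276 FPKM in female DMSO. Male livers had 16.1, 82.8 and 37.9 FPKM in the estradiol group and 68.3, 41.5 and 26.8 FPKM in the DMSO group. Female DMSO stood above all other 9 libraries, whose groups overlapped. srd5a2a ranked at percentile 85.2 of all genes or higher in every library, and at 97.6 to 98.0 in female DMSO.

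The mean of srd5a2a was 46.6 ± 3.09 FPKM in female estradiol and 221 ± 48.3 FPKM in female DMSO (SD, n = 3 each). The log2 change between them was -2.20 (SE 0.54, 95% interval -3.37 to -1.03), and its adjusted p of 0.0521 by limma lay just outside the threshold, in a comparison where 2.73% of genes passed. None of the 7 enzymes tested passed by limma in females. An unadjusted p under 0.05 was seen for 2 of them, srd5a2a and hsd3b7, beside 1743 of all 9190 genes. srd5a2a passed in a fit of the female groups alone (adjusted p = 0.0345), with a filter of 5 FPKM (0.0415) and without male estradiol replicate 1 (0.0195) or 2 (0.0131). No female library was left out in those fits, and the log2 change stayed at -2.20. Without the 4 oocyte-rich libraries, with 1 library left in each estradiol group, srd5a2a was also at -2.20. Over all alternatives its adjusted p ran from 0.0131 to 0.413 and its log2 change from -2.54 to -1.90. Females against males under DMSO gave a log2 change of 2.33 (SE 0.54, limma adjusted p = 0.0830). It passed without male estradiol replicate 1 (0.0311) or 2 (0.0284) and in a fit of the DMSO groups alone (0.0143), where 811 of all 9190 genes passed. No DMSO library was left out in those fits or without the oocyte-rich libraries, and the log2 change stayed at 2.33. In males the log2 change under estradiol was -0.18 (95% interval -1.35 to 0.99, limma adjusted p = 0.851), and it was 0.95 without the 4 oocyte-rich libraries. The interaction of -2.02 (SE 0.76, limma adjusted p = 0.373) did not pass, so the effect was not shown to differ between the sexes. Intestine markers summed to 3450 and 5729 FPKM in female DMSO replicates 1 and 2 and to 836 FPKM in replicate 3. In replicate 3 srd5a2a was at 276 FPKM, with vil1 at 0.0396 FPKM and fabp2, another intestine marker, at 47.3 FPKM. Without the 2 intestine-rich libraries, with 1 library left in female DMSO, the log2 change of srd5a2a was -2.54 in females. Between the sexes under DMSO it was 2.67 in that run. The part of intestine content in the srd5a2a values was not tested. The genes most like srd5a2a were serbp1a, eef2b, an elongation factor of translation, and sars, a seryl-tRNA synthetase (Pearson r of 0.937, 0.914 and 0.914).

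srd5a1, another steroid reductase of the family, was low in all groups. It was at 0.750, 1.01 and 1.55 FPKM in male estradiol and 0.546, 1.57 and 0.697 FPKM in male DMSO. Female livers had 0, 1.24 and 1.66 FPKM in the estradiol group and 0.873, 0.443 and 1.54 FPKM in the DMSO group. Every pair of groups overlapped. The log2 change was 0.14 in males (95% interval -0.73 to 1.01, limma adjusted p = 0.850) and -0.069 in females (95% interval -0.94 to 0.80, limma adjusted p = 0.940). The intervals leave room for a change of up to about 1 on the log2 scale in either direction. Its closest genes were mfsd2ab, cyb5d2 and glceb (Pearson r of 0.889, 0.846 and 0.837).

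**Figure D2:**
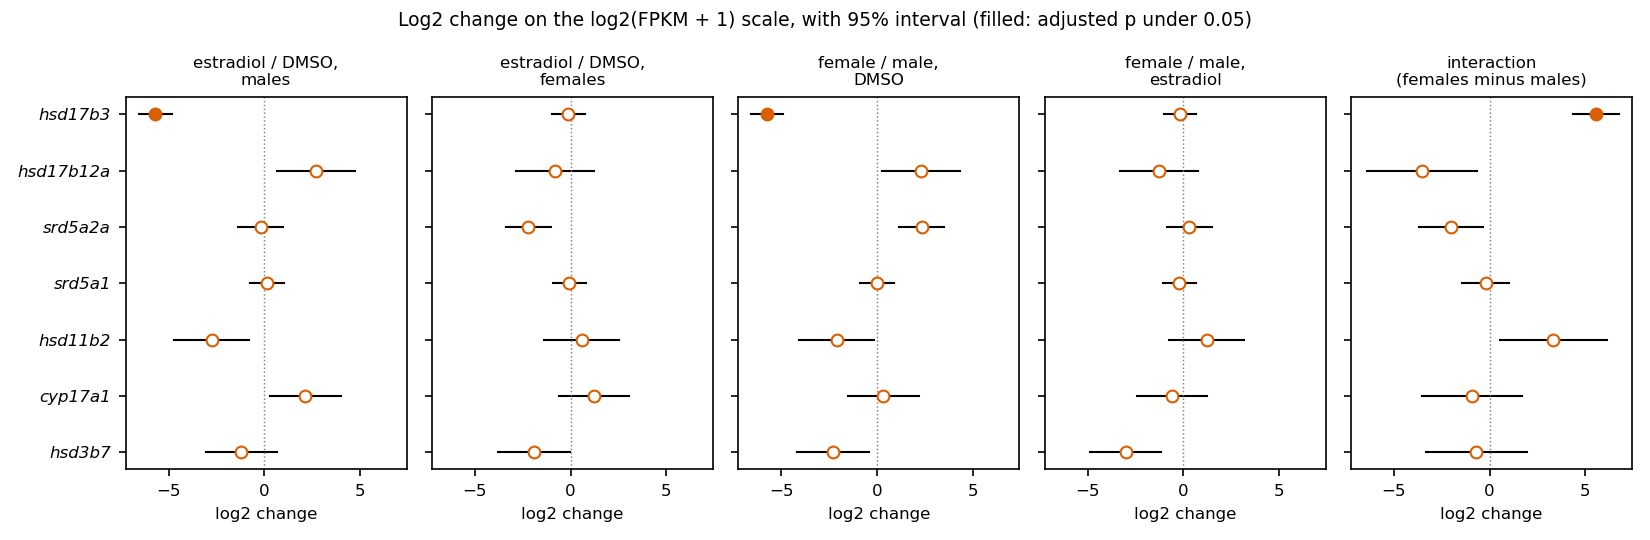
Log2 change of the 7 tested enzymes on the log2(FPKM + 1) scale in 4 comparisons and the interaction, with 1 enzyme per line, the estimate as a circle and its 95% interval as a bar. Filled circles have a limma adjusted p under 0.05, and only hsd17b3 is filled, in males, between the sexes under DMSO and in the interaction.

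hsd11b2 encodes the dehydrogenase that turns cortisol into inactive cortisone and that in fish also takes part in making ketotestosterone, their main androgen. It was at 0.457, 1.47 and 6.80 FPKM in male estradiol against 75.9, 8.21 and 11.2 FPKM in male DMSO. Female livers had 1.11, 14.2 and 10.1 FPKM in the estradiol group and 2.98, 4.36 and 4.03 FPKM in the DMSO group. All 3 male DMSO libraries were above those of male estradiol and of female DMSO, with replicate 1 far above the others, and the female groups overlapped.

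The log2 change of hsd11b2 was -2.76 in males (SE 0.90, limma adjusted p = 0.102) and 0.57 in females (SE 0.90, limma adjusted p = 0.750), and neither passed. Without male DMSO replicate 1 the value in males was -1.80, and without male estradiol replicate 3 it was -3.44. Females against males under DMSO differed by -2.11 (SE 0.90, limma adjusted p = 0.393), and the interaction was 3.33 (SE 1.28, limma adjusted p = 0.385). Without male DMSO replicate 1 they were -1.16 and 2.38, without male DMSO replicate 2 the sex difference was -2.69, and without female estradiol replicate 1 the interaction was 4.20. No alternative brought a call of hsd11b2 in any of the 6 contrasts. hsd11b1la, named as a gene like that of the mammalian enzyme for the reverse step, was listed at 2.07, 0.00263 and 0.936 FPKM in male estradiol, 13.5, 0.00425 and 0.00339 FPKM in male DMSO, 0.000566, 0.245 and 4.68 FPKM in female estradiol, and 2.63, 0.00379 and 0.00637 FPKM in female DMSO. Each group thus held libraries near 0 beside one or more well above it. The genes most like hsd11b2 were cyp2aa12, a cytochrome P450 gene, chrm2a, a muscarinic receptor gene, and ghrb, a growth hormone receptor gene (Pearson r of 0.885, 0.868 and 0.867).

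cyp17a1 encodes the hydroxylase and lyase at the branch towards androgens, an enzyme of gonad and interrenal cells. It was at 14.5, 0.153 and 4.11 FPKM in male estradiol, and male DMSO was listed at 0, 0 and 0.0402 FPKM. Female livers had 6.90, 0.0101 and 2.34 FPKM in the estradiol group and 0.190, 0.780 and 0 FPKM in the DMSO group. The 4 libraries above 1 FPKM were replicates 1 and 3 of both estradiol groups, and replicate 2 of each was near the level of the DMSO livers.

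Those 4 libraries were also the ones rich in oocyte transcripts. zp3b, an egg coat gene, was at 609, 8.82 and 286 FPKM in male estradiol against at most 0.294 FPKM in male DMSO, and at 376, 0.377 and 104 FPKM in female estradiol against 8.72, 34.9 and 1.1 FPKM in female DMSO. In the 7 libraries with at least 5 FPKM of zp3b, cyp17a1 ran from 14.4 to 23.8 FPKM per 1000 FPKM of zp3b, while zp3b itself ran from 8.72 to 609 FPKM. cyp11a1, for the first step of steroid synthesis, had 40.4, 0.358 and 12.4 FPKM in male estradiol against 0.0335, 0 and 0 FPKM in male DMSO, and 13.1, 0 and 5.92 FPKM in female estradiol against 0.801, 3.78 and 0.0372 FPKM in female DMSO. It ran from 34.8 to 108 FPKM per 1000 FPKM of zp3b in the same 7 libraries. hsd3b1, which makes progesterone from pregnenolone, was at 6.32, 0 and 4.08 FPKM in male estradiol and listed at 0 in all of male DMSO. Its ratio to zp3b in those 7 libraries ran from 0, in male estradiol replicate 2, to 24.6 per 1000 FPKM, and that of hsd17b12a from 39.7 to 1558. The cholesterol transport gene star was at most 0.337 FPKM in any liver. Among 14 markers of gonad and interrenal cells, cyp11c1, inha and cyp19a1a were listed at 0 in all 12 libraries. Others of these markers were present, with nr5a1a at 1.33 to 12.5 FPKM, gsdf at 0.164 to 3.46 FPKM and insl3 at up to 3.77 FPKM. cyp11a1 is also among them. mc2r was at 0.612, 0 and 0.453 FPKM in male estradiol, 1.73, 0 and 0 FPKM in female estradiol and 0 in both DMSO groups. fdx1b was at 2.17, 0 and 0.385 FPKM in male estradiol and 0.311, 0 and 0.232 FPKM in female estradiol. In DMSO it was at most 0.151 FPKM. These 14 markers summed to 11.6 to 47 FPKM in male estradiol and 9.65 to 14.8 FPKM in male DMSO. In female estradiol the sum was 4.08 to 17.8 FPKM, and in female DMSO 11.3 to 12 FPKM. The oocyte markers h1m and figla were also listed at 0 in all 12 libraries, the oocyte-rich ones included.

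The log2 change of cyp17a1 was 2.15 in males (SE 0.85, limma adjusted p = 0.143) and 1.22 in females (SE 0.85, limma adjusted p = 0.454), and neither passed. Without the 4 oocyte-rich libraries, with 1 library left in each estradiol group, it was 0.19 in males (limma adjusted p = 0.799) and -0.35 in females (0.560). Without male estradiol replicate 2, the one poor in oocyte transcripts, cyp17a1 passed in males with a log2 change of 3.14 (limma adjusted p = 0.0116). cyp17a1 was tested through its high estradiol libraries, and that run left out a low one, so this call is a description. Without male estradiol replicate 1, its highest library, the log2 change in males was 1.26. In females it was 0.52 without female estradiol replicate 1 and 2.0 without replicate 2. The genes most like it over the 12 libraries were otx1b, alg13 and tdrd1, the last of which encodes a germ cell protein of the piRNA pathway (Pearson r of 0.997, 0.996 and 0.995). cyp17a2, its paralog, was at 1.58, 1.05 and 0.318 FPKM in male estradiol against 0.551, 0 and 0.113 FPKM in male DMSO, and it did not pass in any contrast.

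**Figure D3:**
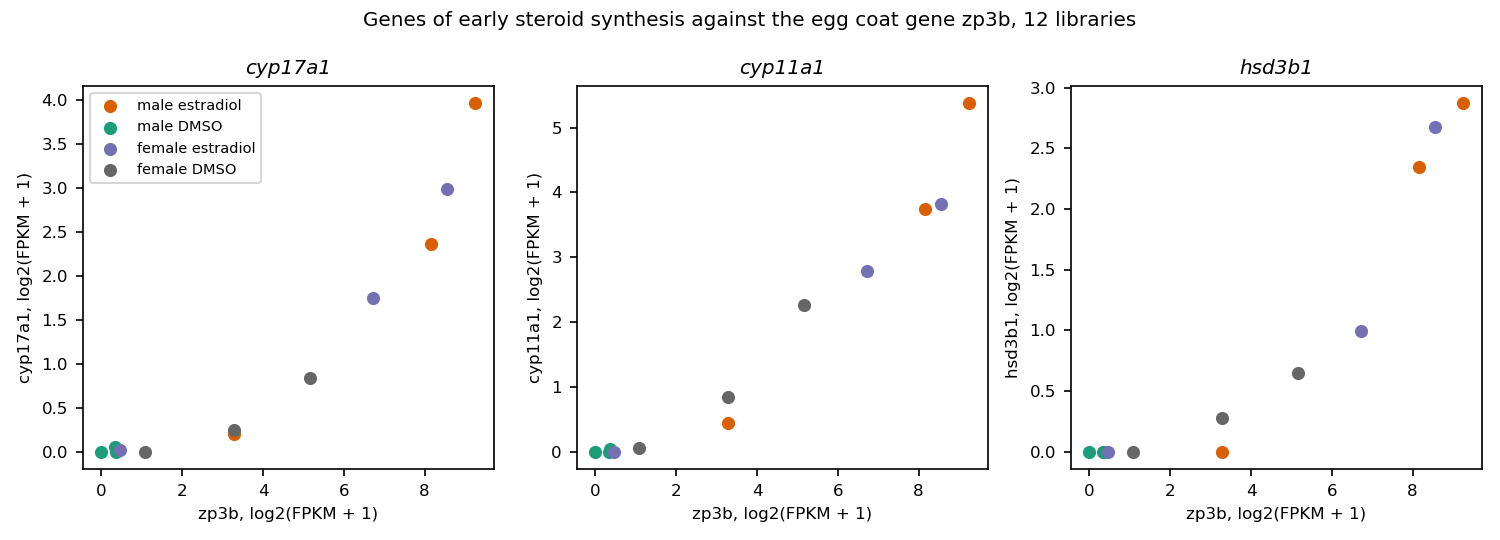
Level of cyp17a1, cyp11a1 and hsd3b1 (vertical axes) against that of the egg coat gene zp3b (horizontal axes), both as log2(FPKM + 1), with 1 point per library coloured by group. The libraries highest in the 3 genes are male estradiol replicates 1 and 3 and female estradiol replicates 1 and 3, which are also highest in zp3b, at 609, 286, 376 and 104 FPKM.

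cyp19a1b encodes the aromatase of the fish brain, a gene that estrogen is known to induce in brain. In liver it was at 0.0636, 0.147 and 0.111 FPKM in male estradiol, 0.496, 0.402 and 0.0748 FPKM in male DMSO, 0, 0.0786 and 0.186 FPKM in female estradiol, and 0.237, 0.132 and 0 FPKM in female DMSO. It was under 0.5 FPKM everywhere, with overlap between all neighbouring groups, and was not tested. The gonad form cyp19a1a was listed at 0 throughout.

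hsd3b7 encodes a dehydrogenase of bile acid synthesis from cholesterol, and it was the most abundant of the 9 enzymes in male DMSO, by the median of its libraries. It was at 39.5, 22.6 and 121 FPKM in male estradiol against 284, 55.1 and 86.3 FPKM in male DMSO. Female livers had 0.548, 11.3 and 10.7 FPKM in the estradiol group and 23.8, 18.1 and 23.7 FPKM in the DMSO group. Female DMSO was below male DMSO and above female estradiol without overlap, female estradiol was below male estradiol without overlap, and the male groups overlapped. Female estradiol was below male estradiol, or above it, without overlap in 12.3% of all genes tested.

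The log2 change of hsd3b7 was -1.19 in males (SE 0.86, limma adjusted p = 0.390) and -1.90 in females (SE 0.86, limma adjusted p = 0.252). It was -2.30 for females against males under DMSO (SE 0.86, limma adjusted p = 0.314) and -3.01 under estradiol (SE 0.86, limma adjusted p = 0.309), a comparison in which 0.109% of genes passed. None of these passed. Without female estradiol replicate 1, its lowest library, the value was -0.92 in females and -2.02 between the sexes under estradiol. In males it was -0.52 without male DMSO replicate 1 and -1.85 without male estradiol replicate 3, and the sex difference under DMSO was -1.62 without male DMSO replicate 1. The sex difference under DMSO passed in a fit of the DMSO groups alone (limma adjusted p = 0.0462), where 811 of all 9190 genes passed. No DMSO library was left out there or without the oocyte-rich libraries, and the log2 change stayed at -2.30. The genes most like hsd3b7 were serhl, ugt1b7, a glucuronosyltransferase gene, and acvr2aa, an activin receptor gene (Pearson r of 0.936, 0.921 and 0.900).

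Estradiol males were set beside untreated females and untreated males. For hsd17b3 they ran from 0.0519 to 0.323 FPKM, beside 0.0497 to 0.240 FPKM in female DMSO, with male DMSO from 36.6 FPKM up. For hsd17b12a they ran from 11.4 to 31.8 FPKM, beside 7.02 to 18.95 FPKM in female DMSO and at most 2.64 FPKM in male DMSO. For hsd11b2 their range of 0.457 to 6.80 FPKM enclosed that of female DMSO, 2.98 to 4.36 FPKM, and lay below male DMSO. srd5a2a in estradiol males, at 16.1 to 82.8 FPKM, enclosed the male DMSO range of 26.8 to 68.3 FPKM and did not reach the female DMSO range of 184 to 276 FPKM. hsd3b7 at 22.6 to 121 FPKM overlapped both. cyp17a1 in estradiol males, at 0.153 to 14.5 FPKM, lay above male DMSO and overlapped female DMSO, with a median of 4.11 FPKM above both. These values share the male DMSO libraries and were not tested as one pattern.

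Of the 7 enzymes tested, 1 fell in males, beside 2.91% of all genes lower there, and 1 was lower in females than in males under DMSO, beside 0.316%. Both were hsd17b3. Without overlap between the groups were 4 of 7 in males and 2 of 7 in females under estradiol, beside 30.0% and 28.8% of all genes, and 5 of 7 between the sexes under DMSO and 1 of 7 under estradiol, beside 30.8% and 12.3%. These counts are a description, since the enzymes were chosen with earlier results of these data known. They also hold hsd17b3 and cyp17a1, for which a difference between groups was built into their being tested. In the mean of the estradiol effects of both sexes, 11.7% of all genes passed and 7.23% were lower. There hsd17b3 had a log2 change of -2.90 (SE 0.27, limma adjusted p = 1.20e-04), an average over a fall in males and a value near 0 in females. The male DMSO libraries through which hsd17b3 was tested also enter this mean, so its call there is a description too. srd5a2a had -1.19 (limma adjusted p = 0.0609) and passed without male estradiol replicate 2 (0.00711) and with median-of-ratios scaling (0.0494). cyp17a1 had 1.69 (limma adjusted p = 0.0804). It passed without male estradiol replicate 2 (0.00718) or female estradiol replicate 2 (0.0322), the libraries of their groups poorest in oocyte transcripts. Both calls are a description as well, since cyp17a1 was tested through its high estradiol libraries. hsd17b12a had 0.93 (limma adjusted p = 0.342) and passed without female estradiol replicate 2 (0.0362). Without the 4 oocyte-rich libraries, with 1 library left in each estradiol group, cyp17a1 was at -0.080 and hsd17b12a at -0.50.

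Among 35 other genes of steroid synthesis and their partners, 27 were in the table and 18 were tested. In males 2 fell and 0 rose, where 3.79% of all genes passed and 2.91% were lower, with a median log2 change of -0.24 beside 0.21 for all genes. Of the 18, hsd3b1 and cyp17a2 met the filter through estradiol libraries alone, so a difference was built into their being tested. Both enter the medians. In females 0 fell and 0 rose by limma, and the median was -0.43 beside -0.079 for all genes. An unadjusted p under 0.05 was seen there for 3 of the 18, beside 1743 of all 9190 genes. hsd17b4, a peroxisomal enzyme of fatty acid and bile acid side chain oxidation, fell in males to 24.6 ± 12.5 FPKM against 87.6 ± 4.46 FPKM in male DMSO (SD, n = 3 each; log2 change -1.95, SE 0.45, limma adjusted p = 0.0366). hsdl2, a peroxisomal relative of the hydroxysteroid dehydrogenases, fell to 25.3 ± 4.40 FPKM against 100.1 ± 46.0 FPKM (log2 change -1.85, SE 0.43, limma adjusted p = 0.0360). Both calls lay close to the threshold. hsd17b4 no longer passed once male DMSO replicate 1, 2 or 3 was left out (adjusted p = 0.144, 0.121 and 0.0926), female DMSO replicate 1, 2 or 3 (0.0609, 0.0597 and 0.0567) or male estradiol replicate 1 (0.0870). That of hsdl2 ended without male DMSO replicate 1 or 2 (0.171 and 0.131), female DMSO replicate 1, 2 or 3 (0.0607, 0.0556 and 0.0507) or male estradiol replicate 1 or 3 (0.105 and 0.0613). With only the male groups fitted the adjusted p was 0.0919 for hsd17b4 and 0.0850 for hsdl2, and with the 2 intestine-rich libraries of female DMSO left out it was 0.0969 and 0.0886. Female DMSO is not part of this comparison, and without any of its libraries the log2 changes stayed at -1.95 and -1.85. hsd17b4 did not pass after quantile normalization either (0.0861), nor hsdl2 without the 4 oocyte-rich libraries (0.0867).

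In the mean of both sexes 4 of these 18 genes fell and 0 rose, where 11.7% of all genes passed and 7.23% were lower. They were hsd17b4 and hsdl2, with log2 changes of -1.36 and -1.25 (limma adjusted p = 0.0230 and 0.0243), cyb5a and hsd17b14. cyb5a, the gene of cytochrome b5, which aids the lyase step of CYP17A1 in mammals, was at 151 ± 79.1 FPKM in male estradiol against 356 ± 181 FPKM in male DMSO, and at 75.0 ± 22.9 FPKM in female estradiol against 289 ± 67.7 FPKM in female DMSO (SD, n = 3 each; log2 change -1.61, SE 0.36, limma adjusted p = 0.0169). hsd17b14, whose mammalian enzyme can oxidise estradiol, was at 3.74 ± 3.06 FPKM in male estradiol against 8.72 ± 1.52 FPKM in male DMSO, and at 1.28 ± 0.710 FPKM in female estradiol against 6.17 ± 2.82 FPKM in female DMSO (log2 change -1.42, SE 0.34, limma adjusted p = 0.0228). cyb5a no longer passed without male DMSO replicate 1 (adjusted p = 0.0512) or female DMSO replicate 1 (0.0522). That of hsd17b14 ended without male DMSO replicate 1 or 2 (0.0649 and 0.0530), female DMSO replicate 1 or 3 (0.0574 and 0.0567) or male estradiol replicate 3 (0.0533). hsd17b4 lost it without male DMSO replicate 1 or 2 (0.0612 and 0.0547) or female DMSO replicate 1 or 3 (0.0522 and 0.0536), and hsdl2 without male DMSO replicate 1 or 2 (0.0687 and 0.0631) or female DMSO replicate 1 or 2 (0.0680 and 0.0546). None of the 4 passed without the 2 intestine-rich libraries (adjusted p = 0.140 for hsd17b4, 0.189 for hsdl2, 0.121 for cyb5a and 0.0778 for hsd17b14), while their log2 changes there were -1.41, -1.07, -1.65 and -1.71. After quantile normalization hsd17b4 had 0.0809 and cyb5a 0.0521, and without the oocyte-rich libraries hsdl2 had 0.130 and hsd17b14 0.211. Summed hepatocyte markers, among them the abundant fabp10a, were lower in both estradiol groups than in their DMSO groups as well. Single markers did not all go that way. ttr was at 112 to 136 FPKM in female estradiol against 63.9 to 105 FPKM in female DMSO. fga was at 13596 FPKM in male estradiol replicate 2 against at most 3948 FPKM in male DMSO. The part of hepatocyte content in the values of the 4 genes was not tested.

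**Figure D4:**
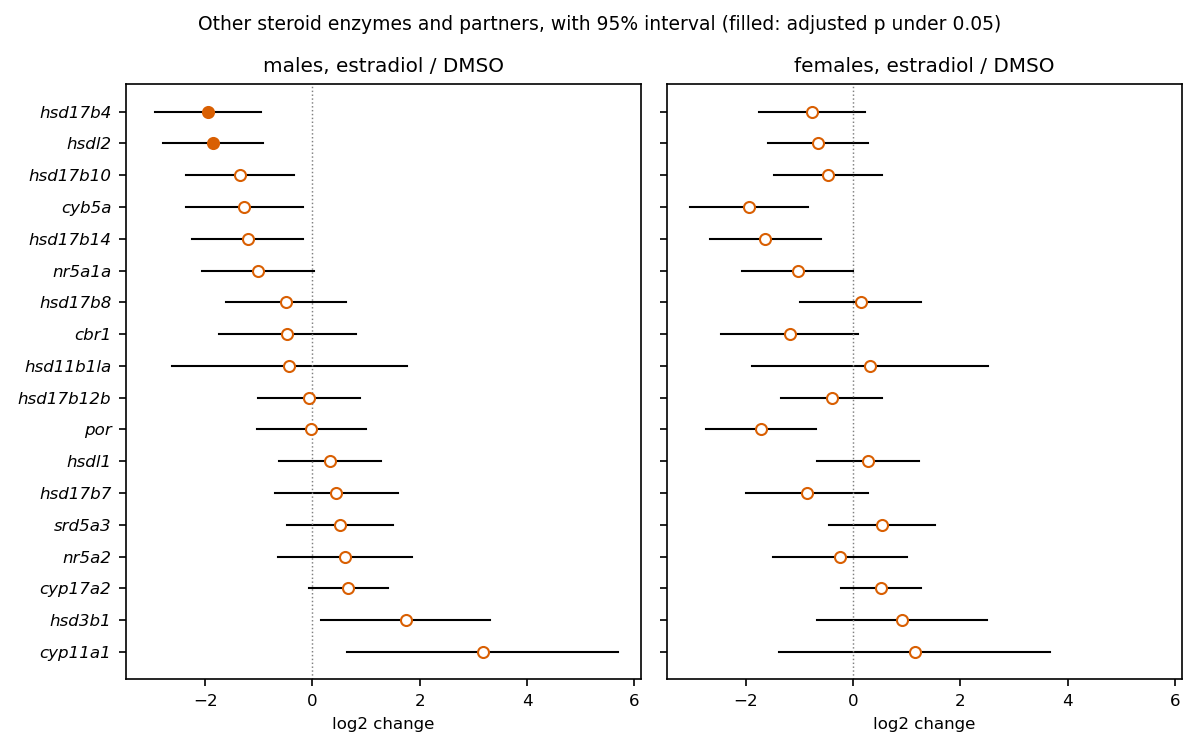
Log2 change under estradiol of the 18 tested genes among other steroid enzymes and partners, in males on the left and females on the right, on the log2(FPKM + 1) scale with 95% intervals. Filled circles, for hsd17b4 and hsdl2 in males, have a limma adjusted p under 0.05. The genes hsd3b1 and cyp17a2 met the filter through estradiol libraries alone.

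Of 20 bile acid genes, 5 were in the table and 4 were tested. In males 3 fell, cyp8b1, cyp8b2 and hsd17b4, where 2.91% of all genes were lower, with a list median of -2.02 beside 0.21 for all genes. Of these, hsd17b4 was already counted among the steroid partners, so the lists are not separate. In females 0 passed by limma, and 2 of the 4 had an unadjusted p under 0.05, beside 1743 of all 9190 genes. cyp8b2, a sterol hydroxylase gene, was at 0.299, 0.332 and 0.436 FPKM in male estradiol against 5.20, 4.99 and 4.14 FPKM in male DMSO (log2 change -2.09, SE 0.26, limma adjusted p = 0.00136). It met the filter through DMSO libraries alone, so a difference between estradiol and DMSO was built into its being tested. Its part in the count of 3 and in the list median is thus a description. In female DMSO cyp8b2 was at 1.0, 0.939 and 1.49 FPKM, lower than in male DMSO (log2 change -1.44, SE 0.26, limma adjusted p = 0.0297). The male DMSO libraries alone carried cyp8b2 past the filter, and the female DMSO libraries alone would not have. This call between the sexes is thus a description too. Female estradiol had 0, 0.295 and 0.101 FPKM, below female DMSO without overlap, but the log2 change of -0.92 in females did not pass (limma adjusted p = 0.0821). That sex difference did not pass when male DMSO replicate 1, 2 or 3 was left out (adjusted p = 0.137, 0.140 and 0.0589), female DMSO replicate 1 or 2 (0.155 and 0.160), male estradiol replicate 3 (0.0591) or female estradiol replicate 2 or 3 (0.0524 and 0.0621), nor with a pseudocount of 0.1 (0.218), the replicate number as a block (0.0650) or the intestine-rich libraries left out (1.0, at a log2 change of -1.21). Its paralog cyp8b1 fell in males by 2.81 on the log2 scale (limma adjusted p = 0.0138), a call that ended without male DMSO replicate 1 or 3 (0.0700 and 0.0605) or male estradiol replicate 1 (0.0505) or the oocyte-rich libraries (0.0546). In the mean of both sexes, where 7.23% of all genes were lower, all 4 tested genes fell, cyp8b2 with the limit just given. The fall of scp2a, of a sterol carrier and peroxisomal thiolase, was 1.56 (limma adjusted p = 0.0242). Summed hepatocyte markers were lower in both estradiol groups as well, though single markers did not all go that way. The part of hepatocyte content in the values of the bile acid genes was not tested. The scp2a call ended without male DMSO replicate 1 or 2 (0.0681 and 0.0577) or female DMSO replicate 1 or 3 (0.0680 and 0.0512), and that of cyp8b1 without male DMSO replicate 1 or 3 (0.0591 and 0.0542) or female DMSO replicate 1 or 3 (0.0639 and 0.0528). Quantile normalization (0.113 and 0.0572) and leaving out the intestine-rich libraries (0.157 and 0.0974, at log2 changes of -1.51 and -1.70) ended the calls of scp2a and cyp8b1 as well, and leaving out the oocyte-rich ones that of cyp8b1 (0.154).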

How the data were processed

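The submitters' processing notes name cutadapt (a read trimmer), TopHat2 2.0.11 (an aligner), Cufflinks 2.2.1 (an expression estimator) and the build danRer7. The annotation is not given in the sources used here. The deposited table holds 1 FPKM value per gene symbol and library. The header names no unit, so FPKM was inferred from Cufflinks and the values. Sums ran from 304905 to 1217095 FPKM, and any further scaling is not stated. Whole fragments could not be recovered: over 66 pairs of libraries, at most 1.85% of low genes shared one step 0.01 wide on the log2 scale. Depth is therefore unknown and no counting interval is given. The libraries were stranded, per the labels' protocols, but whether counting used strand is not given.

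Values were transformed as log2(FPKM + 1). A model with 4 group means was fitted to 9190 genes with limma 3.58.1 in R 4.3.3 (intensity trend, Benjamini-Hochberg threshold 0.05) and tested on simulated data. There were 6 contrasts. Alternatives kept the same 9190 genes, except those on the filter. Tables and figures used Python 3.11.15, pandas 2.3.3, numpy 2.4.6 and matplotlib 3.10.9. Every enzyme of the list is named, the genes of the steroid and bile acid lists that passed in any contrast, and the 3 genes most correlated with each tested enzyme, clone names left out. cyp11a1, hsd3b1, hsd17b12b, hsd11b1la, cyp17a2, star and the marker genes are named outside this rule, with their values seen. The enzymes and lists were chosen with earlier results of these data known. Replicate numbers were not used to pair the libraries in the main fit.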

Additional observations from a re-analysis of the deposited data

Results flagged for a closer look

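The interaction of hsd17b3, the log2 change under estradiol in females minus that in males, was 5.58 (SE 0.55, limma adjusted p = 7.02e-04). In males the log2 change was -5.69, with all 3 estradiol libraries below all 3 DMSO libraries. In females it was -0.11, with the 6 libraries overlapping. The gene was tested only because the male DMSO libraries were high, and in female DMSO it was too low for a fall of the size seen in males, so this value restates the male DMSO level and does not show that female liver responds differently.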

How the results depend on the processing

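The calls of hsd17b3 kept direction and threshold in all alternatives: its log2 change ran from -7.79 to -5.22 in males over 21 alternatives, from -7.95 to -5.27 between the sexes under DMSO over 21, and from 5.11 to 7.15 in the interaction over 20. All of these calls use the male DMSO libraries through which hsd17b3 was tested. Depth is unknown, so it is not known below which level differences were undetectable. Counts of all genes passing moved more. With only the compared groups fitted, 2 of the 7 enzymes passed in males, 1 in females and 4 between the sexes under DMSO. Counts of all genes passing were then 220 in males, 267 in females, 811 between the sexes under DMSO and 0 under estradiol. Without the 4 oocyte-rich estradiol libraries, the lone library of each estradiol group being assumed to vary like the others, they were 667 in males, 556 in females, 825 and 510 between the sexes under DMSO and estradiol and 480 in the interaction, with 2, 2, 4, 1 and 2 enzymes. Without the 2 intestine-rich female DMSO libraries they were 190, 13, 12, 4 and 7, and 194 in the mean of the sexes. A filter of 5 FPKM gave 1 of 5 enzymes in females, beside 274 of 5387 genes. Median-of-ratios scaling gave 2 of 7 enzymes in the mean, beside 1215 of 9190 genes. Quantile normalization gave 17 genes between the sexes under estradiol. Leaving out 1 library at a time gave 124 to 2220 genes in males (lowest without male DMSO replicate 1, highest without male estradiol replicate 2), 40 to 704 in females, 409 to 2935 in the mean, 30 to 121 between the sexes under DMSO, 1 to 30 under estradiol and 10 to 78 in the interaction, with 1 to 2, 0 to 1, 1 to 3 and 1 to 2 enzymes in the first 4. The cause of these moves was not tested.

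Replicate numbers were not used as pairs in the main fit. Deviations of same-numbered libraries from their group means correlated at -0.12, 0.022 and -0.018 in males and -0.087, -0.43 and 0.029 in females. Between the sexes the values were 0.17, 0.045 and 0.13 under DMSO. Under estradiol they were 0.49, 0.57 and 0.0090, with replicates 1 and 2 closest to their own number. In no comparison were all 3 over 0.1 or every library closest to its own number. With the replicate block, 311 genes passed in males, 187 in females, 1058 in the mean, 47 between the sexes under DMSO, 4 under estradiol and 20 in the interaction, and the number of enzymes passing was the same as without it.

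Scaling moved the median log2 change of all genes from 0.21 to -0.052 (quantile) in males, from -0.27 to -0.036 between the sexes under estradiol and from -0.28 to 0.045 in the interaction. The split of genes higher and lower in estradiol females was 45 and 206, and 74 and 150 after quantile normalization. That between the sexes under estradiol was 7 and 3, against 14 and 3 (quantile) and 8 and 2 (median of ratios), and in the interaction 15 and 9, against 24 and 7 (quantile).

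Of 1098 alternative values for 54 single-gene results, 956 kept direction and side of the threshold, 71 no longer passed, 26 newly passed and 45 changed sign. None of those that changed sign had passed. After quantile normalization srd5a1 was at -0.16 in males, -0.082 in the mean, -0.14 and 0.022 between the sexes under DMSO and estradiol and 0.16 in the interaction, and hsd17b3 at 0.012 in females and 0.030 between the sexes under estradiol. With median-of-ratios scaling srd5a1 was at 0.032 in females and -0.035 between the sexes under DMSO, and with a pseudocount of 0.1 at -0.17 in the mean. Without the oocyte-rich libraries srd5a2a was at 0.95 in males and -0.82 between the sexes under estradiol, srd5a1 at 0.24 in females, 0.15 between the sexes under estradiol and 0.15 in the interaction, cyp17a1 at -0.35 in females and -0.080 in the mean, hsd17b12a at -0.50 in the mean and hsd3b7 at 1.36 in the interaction. Without the intestine-rich libraries srd5a1 was at -0.18 in the mean and cyp17a1 at -0.019 between the sexes under DMSO. With 1 library left out, srd5a1 ran from -0.010 to 0.36 in males, -0.35 to 0.36 in females, -0.10 to 0.25 in the mean, -0.20 to 0.23 and -0.47 to 0.23 between the sexes under DMSO and estradiol and -0.48 to 0.22 in the interaction. srd5a2a ran from -0.75 to 0.40 in males and -0.26 to 0.88 between the sexes under estradiol, hsd17b12a from -2.001 to 0.45 in females and -2.41 to 0.038 between the sexes under estradiol, cyp17a1 from -1.58 to 0.30 there, and hsd3b7 from -1.39 to 0.28 in the interaction. The cause of these changes was not tested.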
